A study of Mus musculus with 10 samples.

Results

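Fatty acid oxidation was followed through 32 genes in cultured mouse fetal testes: 20 of mitochondrial enzymes and carriers, 9 of peroxisomal ones, and 3 whose products are not assigned to 1 of these organelles (Cpt1c, Crat and Acad11). The genes are a chosen list, taken by symbol from a count table of 24470 gene entries. Gonads came from 5 male C57BL/6 embryos, named M1 to M5, at E12.5. From each embryo, 1 testis was cultured for 48 h with 75 µM GPI, an inhibitor of glycogen phosphorylase, the enzyme that frees glucose units from glycogen. The other testis received only the vehicle, DMSO. The mesonephros was removed after culture, so each library holds RNA of a whole gonad with all of its cell types. The 10 libraries held 10203679 to 15590223 counts with vehicle and 11025409 to 15635322 with GPI.

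Fatty acids are shortened in repeated rounds of dehydrogenation, hydration, a second dehydrogenation and thiolytic cleavage. Mitochondria import long chains as carnitine esters and pass the electrons of the first step to ubiquinone, whereas peroxisomes import acyl-CoA through ABC transporters, start with an oxidase that makes hydrogen peroxide, and export shortened chains. In the adult testis, Sertoli cells oxidize fatty acids and supply germ cells with lactate. In a bulk testis, fewer cells of a type and less RNA per cell cannot be told apart.

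Some libraries stood apart, and cell type markers moved with the treatment. Xist, the long RNA of the inactive X chromosome, gave 1679, 59.7, 54.7, 642 and 979 normalized counts with vehicle and 738, 85.9, 93.2, 38.9 and 53.4 with GPI (embryos M1 to M5 in order, here and below). The vehicle libraries of M1, M4 and M5 and the GPI library of M1 were high, whereas 4 genes of the Y chromosome were present in all 10 libraries (Ddx3y from 1529.8 to 1979). The files do not show whether RNA of female gonads or an exchange of samples is behind the high Xist values, and neither was tested. All GPI libraries lay below all vehicle libraries in 10 endothelial and 5 tested germ cell markers, against 9.05% of all tested genes. They lay above them in 9 Leydig cell markers, against 7.07% of all tested genes. These directions come from the same labeled libraries, so they cannot test whether samples were exchanged. The paper also counted fewer germ cells with GPI. What the vehicle libraries of M1, M4 and M5 and the GPI library of M1 measure is less certain. Of the 5 genes in this chromosome check edgeR and DESeq2 called 0, while limma-voom and edgeR without M2 or without M3 called 1, Xist, lower. In edgeR with all embryos Xist had an adjusted p of 0.0575 and was the 1 gene with an unadjusted p under 0.05. The mesonephric markers Pax8 and Cdh16 were highest in the vehicle library of M1, at 399.7 and 113 normalized counts. Cdh16 was also found in the vehicle library of M3 (48) and the GPI library of M2 (21.1). The numbers of calls in the lists below are also given for embryos M2 and M3 alone, where both libraries were low in Xist, a choice made after these values were seen.

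Normalized counts are counts divided by the TMM-scaled library size and multiplied by its mean. Fetal Leydig cell markers rose in 9 of 9 tested genes of 10, and their summed normalized counts were 2287, 4181, 5543, 3198 and 7165 with vehicle and 12759, 13472, 19904, 22686 and 17094 with GPI. Hsd3b1 was the most abundant of them with vehicle and rose (log2 fold change 1.75 ± 0.20), as did Cyp11a1 (log2 fold change 2.90 ± 0.27) and Scarb1 (log2 fold change 1.05 ± 0.11). With GPI the mean of Cyp11a1 (5867.8 ± 1593.3) was above that of Hsd3b1 (5275.4 ± 1285.9). Sertoli cell markers rose in 8 of 10 genes, with sums of 3722, 5852, 4398, 5548 and 6119 with vehicle and 4431, 8145, 8465, 10599 and 8133 with GPI. Aard (log2 fold change 0.54 ± 0.12), Sox9 (log2 fold change 0.59 ± 0.09) and Mro (log2 fold change 0.89 ± 0.12) were the most abundant. The increase of Aard lost its call without embryo M3 (adjusted p = 0.0502). In embryos M2 and M3 alone 9 Leydig and 5 Sertoli cell markers were called higher. Both somatic lineages thus had more marker RNA with GPI.

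Germ cell markers fell in 5 of 7 tested genes of 10, with sums of 1916, 3209.9, 2431, 2993 and 1637 with vehicle and 920.0, 735, 764, 969 and 956 with GPI. Kit, the most abundant and also a gene of somatic cells, was not called (log2 fold change -0.16 ± 0.09, edgeR adjusted p = 0.243), whereas Dazl (log2 fold change -4.62 ± 0.34) and Dppa3 (log2 fold change -5.20 ± 0.36) fell. Endothelial markers fell in 10 of 10 genes, with sums of 7939, 8285, 7647, 8788 and 7910.5 with vehicle and 908, 1073, 729, 590.2 and 766 with GPI. Cdh5 (log2 fold change -3.63 ± 0.12), Pecam1 (log2 fold change -4.16 ± 0.15) and Kdr (log2 fold change -2.44 ± 0.13) were the most abundant of that list with vehicle. Most tested markers of germ cells and all those of vessels thus fell, and 6 and 10 were called lower in M2 and M3 alone.

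Macrophage markers fell in 8 of 9 tested genes of 10, with sums of 1046, 686, 823, 786 and 747 with vehicle and 451, 396, 359, 203 and 242 with GPI. The most abundant of these with vehicle were Ptprc (-1.85), Cd68 (-0.76) and Mrc1 (-0.90 on the log2 scale). Erythroid markers fell in 8 of 9 tested genes of 10, with sums of 2109, 2915, 5402, 5095 and 4228 with vehicle and 1866, 1019.9, 952, 1070.0 and 2498 with GPI. Hbb-y (-0.98), Hbb-bs (-4.13) and Hbb-bt (-3.84) were the most abundant of them with vehicle. In M2 and M3 alone 4 macrophage markers were called lower, with Cd68 (adjusted p = 0.177) and Mrc1 (0.188) not among them, and 8 erythroid ones. Mesonephric markers fell in 1 of 3 tested genes of 10, Emx2 (log2 fold change -0.73 ± 0.13), which the gonad also expresses, with sums of 1865, 1398, 1547, 1194 and 1062 with vehicle and 973, 1120.4, 749, 727 and 968 with GPI. Pax8 (log2 fold change -0.28 ± 0.27, edgeR adjusted p = 0.526) and Gata3 (log2 fold change 0.10 ± 0.25, edgeR adjusted p = 0.822) were not called, and 1 marker was called lower in M2 and M3 alone.

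Fat and muscle were checked because they burn fatty acids. Muscle markers rose in 3 of 3 tested genes of 10, Myh6 (2.99), Tnnt2 (1.63) and Myh7 (1.76). The sums of the list were 116, 294, 226, 193 and 231 with vehicle and 717, 948, 1089.7, 1528 and 1244 with GPI, where Myh6 made up most. In M2 and M3 alone 2 of the 3 tested genes were called, without Myh7 (edgeR adjusted p = 0.0721). Myod1 had 0 counts in all 10 libraries, and Acta1, Ckm and Myog averaged at most 1.92 normalized counts in either group. Also not tested were Tnnc1, at 9.55 ± 4.69 with vehicle and 4.54 ± 2.33 with GPI, Actc1, at 6.87 ± 5.58 with vehicle and 5.97 ± 6.05 with GPI, and Myh3, at 0.703 ± 0.977 with vehicle and 4.69 ± 8.06 with GPI. Adipocyte markers fell in 1 of 3 tested genes of 8, with sums of 374, 555, 381, 370.5 and 407 with vehicle and 63.8, 72.2, 49.4, 87.3 and 87.2 with GPI. That gene, Fabp4 (log2 fold change -5.72 ± 0.30), is also made by endothelial cells, whereas Plin1 (log2 fold change 0.68 ± 0.52, edgeR adjusted p = 0.404) and Cidea (log2 fold change -0.27 ± 0.30, edgeR adjusted p = 0.583) were not called, and Fabp4 kept its call in M2 and M3 alone. Lep had 0 counts in all 10 libraries, and Adipoq averaged 0.152 and 0.421. The part of these shifts in the values of the oxidation genes was not tested.

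GPI raised the transcripts of several matrix enzymes of mitochondrial oxidation and lowered those of 1 peroxisomal importer, while most of the pathway was not called. Of the 32 genes, 30 passed the filter on low counts and were tested. By edgeR's quasi-likelihood test, paired by embryo, 8 of 30 (26.7%) were called higher and 2 (6.67%) lower at an FDR of 0.05 over 13941 genes. Of all tested genes, 11.1% were called higher and 11.9% lower. Among mitochondrial genes 7 of 19 were called higher (36.8%) and 1 lower (5.26%), and among peroxisomal genes 1 of 8 was called in each direction, which is near the share over all tested genes. In 4 of the 30 genes all GPI libraries lay above all vehicle libraries and in 1 below, against 7.07% and 9.05% of tested genes.

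The called genes split by how firmly they held. Hadh, Echs1, Acaa2, Etfdh and Abcd2 were called whichever embryo was left out. Cpt1a, Acadm, Etfa, Eci1 and Abcd3 each lost the call without 4 of the 5 embryos in turn. The number of genes called higher was accordingly 4 without M1, M3 or M4, 5 without M5 and 7 without M2, and it was 3 in embryos M2 and M3 alone (Hadh, Echs1 and Acaa2), where Eci1 and Abcd2 were called lower. The number called lower was 1 without M2, M3, M4 or M5. With counts scaled by library totals only, 4 genes were called higher. Calls over all tested genes changed too, from 1544 higher and 1654 lower with all embryos. Without M1 to M5 in turn, 1396, 1430, 969, 1024 and 1262 were higher and 1686, 1576, 1347, 1287 and 1475 lower. In M2 and M3 alone 613 were higher and 932 lower of 14244, and with library totals 1238 were higher and 1972 lower.

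**Figure D1:**
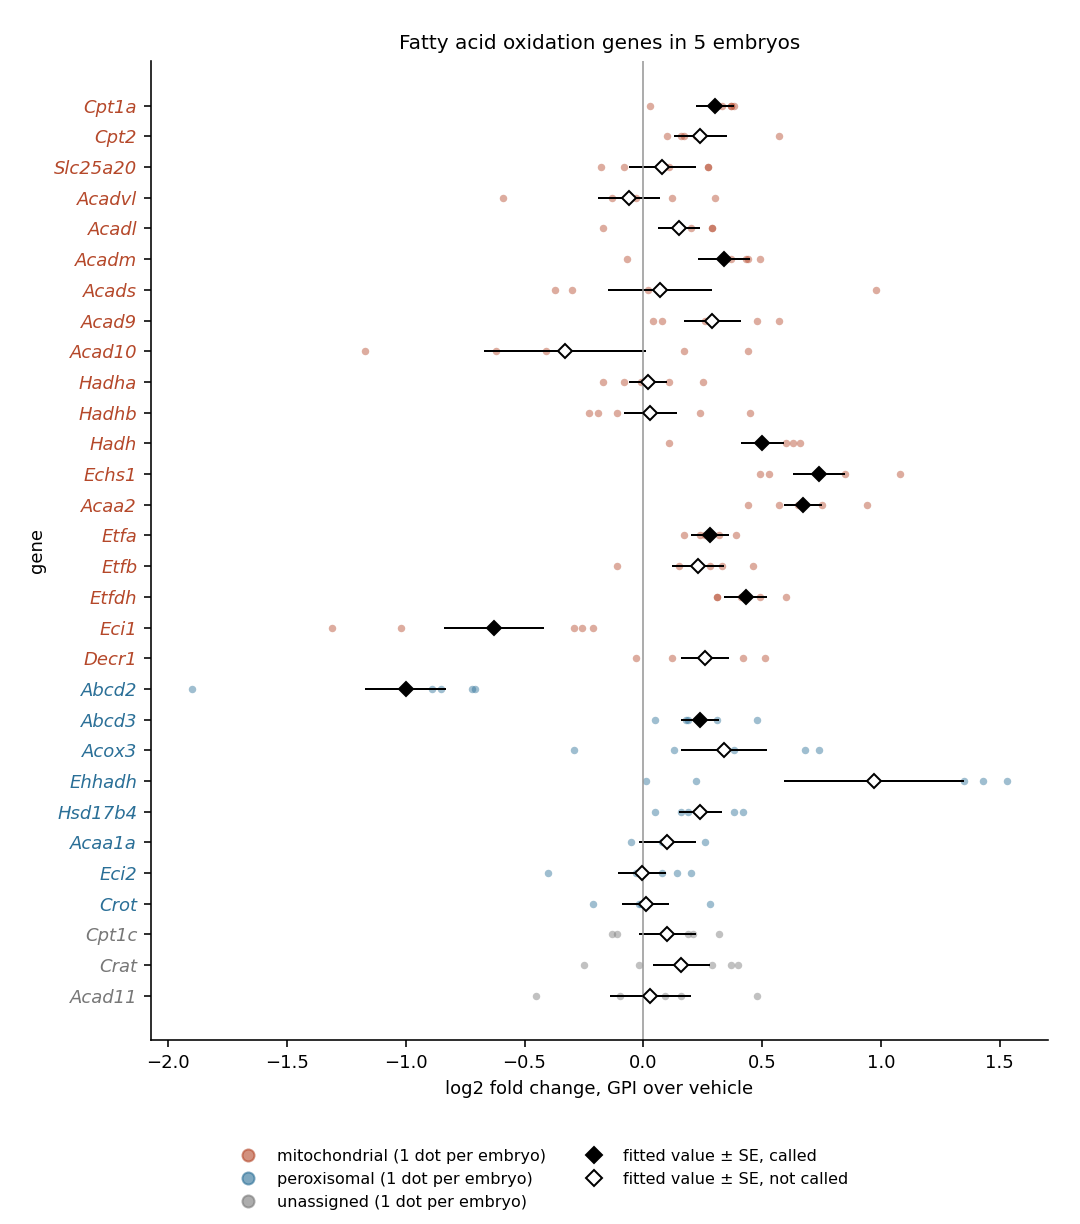
Log2 fold change of GPI over vehicle for the 30 tested genes, in the order of their roles. Dots are single embryos, diamonds are fitted values with their SE, and filled diamonds mark genes called at an FDR of 0.05. Echs1, Acaa2 and Hadh lie farthest to the right among called genes, Abcd2 and Eci1 to the left.

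Entry into mitochondria runs through the carnitine shuttle. Cpt1a, the outer-membrane carnitine palmitoyltransferase that gates the entry of long chains (mm10, chr19:3323301-3385733, Entrez ID 12894), had 637, 871, 700.1, 839.7 and 806 normalized counts with vehicle and 799, 888, 911, 1088 and 1041 with GPI. It was higher with GPI in 5 of 5 embryos, least in M2, and the groups overlapped, since the GPI library of M1 lay below the vehicle libraries of M2, M4 and M5. Cpt1a rose by a 1.23-fold factor (log2 fold change 0.30 ± 0.08, edgeR adjusted p = 0.0206). The adjusted p was 0.0569 to 0.113 without M1, M3, M4 or M5, at log2 fold changes of 0.26 to 0.36 over the embryos left out in turn.

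The other parts of the shuttle were not called. Cpt2, which returns acylcarnitine to acyl-CoA at the inner membrane, had 262 ± 45.7 with vehicle and 308 ± 33.3 with GPI (SD, n = 5). It was higher in 5 of 5 embryos, and the difference missed the threshold (log2 fold change 0.24 ± 0.11, edgeR adjusted p = 0.147). Slc25a20, the carnitine-acylcarnitine carrier, had 150.0 ± 28.2 with vehicle and 158 ± 25.4 with GPI and was higher in 3 of 5 embryos (log2 fold change 0.08 ± 0.14, edgeR adjusted p = 0.746). The muscle isoform Cpt1b was hardly detected, with raw counts of 0 to 6 per library, and was not tested. Its gene also overlaps a read-through entry on the same strand.

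The acyl-CoA dehydrogenases take the first electrons from chains of different length. Acadm, the medium-chain enzyme (mm10, chr3:153922353-153944643, Entrez ID 11364), had 368, 482, 367, 421 and 386 normalized counts with vehicle and 499, 460.5, 518, 570.2 and 499 with GPI. It was higher with GPI in 4 embryos and slightly lower in M2, whose vehicle library was the highest of its group. Acadm rose by a 1.26-fold factor (log2 fold change 0.34 ± 0.11, edgeR adjusted p = 0.0341), and the adjusted p was 0.0878 to 0.164 without M1, M3, M4 or M5.

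The other 5 dehydrogenases were not called. The very-long-chain enzyme Acadvl had 268 ± 28.4 with vehicle and 257 ± 35.6 with GPI (log2 fold change -0.06 ± 0.13, edgeR adjusted p = 0.793), was lower with GPI in 3 embryos and higher in 2, and had a positive sign without M3. The long-chain enzyme Acadl had 584 ± 59.3 with vehicle and 649 ± 61.6 with GPI (log2 fold change 0.15 ± 0.09, edgeR adjusted p = 0.285) and was higher in 4 embryos. Short-chain Acads had 85.8 ± 27.7 with vehicle and 89.1 ± 18.9 with GPI (log2 fold change 0.07 ± 0.22, edgeR adjusted p = 0.86), with single-embryo log2 ratios of 0.02, -0.30, 0.98, 0.08 and -0.37. Acads thus swung in both directions between embryos, and its sign was negative without M3. Acad9, which also helps to assemble complex I, was higher in 5 of 5 embryos, at 254 ± 23.3 with vehicle and 311 ± 29.9 with GPI (log2 fold change 0.29 ± 0.12, edgeR adjusted p = 0.103). The little studied Acad10 was near the count filter, at 30.3 ± 6.45 with vehicle and 25 ± 10.7 with GPI (log2 fold change -0.33 ± 0.34, edgeR adjusted p = 0.553).

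Later steps of the spiral are shared between the trifunctional protein, an inner-membrane complex of Hadha and Hadhb that handles long chains, and soluble matrix enzymes that handle shorter ones. The matrix enzymes had the largest increases among called mitochondrial genes, and the complex was not called. Echs1, the short-chain enoyl-CoA hydratase (mm10, chr7:140105723-140116423, Entrez ID 93747), had 229, 254, 266, 293 and 316 normalized counts with vehicle and 332, 459, 441, 621 and 446 with GPI. All GPI values were above all vehicle values, with M4 the highest and M1 the lowest of the GPI group. The increase was 1.67-fold (log2 fold change 0.74 ± 0.11, edgeR adjusted p = 0.000287; 5 of 5 embryos) and ran from 0.65 to 0.81 on the log2 scale with single embryos left out.

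Hadh, the hydroxyacyl-CoA dehydrogenase of medium and short chains (mm10, chr3:131233419-131272101, Entrez ID 15107), had 877, 795, 753, 871 and 863 normalized counts with vehicle and 948, 1124, 1169, 1378 and 1312 with GPI. The groups did not overlap, and M1 had the smallest difference. Hadh rose 1.42-fold (log2 fold change 0.50 ± 0.09, edgeR adjusted p = 0.00114; 5 of 5 embryos). Acaa2, the matrix thiolase that releases acetyl-CoA (Entrez ID 52538), had 987, 768, 1146, 1149.5 and 1092 normalized counts with vehicle and 1665, 1471, 1698, 1555 and 1717 with GPI. The groups were separate, with the M2 testes lowest in each. Acaa2 rose 1.59-fold (log2 fold change 0.67 ± 0.08, edgeR adjusted p = 5.57e-05; 5 of 5 embryos). All 3 enzymes were also called in embryos M2 and M3 alone (Echs1 0.78, Hadh 0.56 and Acaa2 0.74).

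Hadha, the hydratase and long-chain dehydrogenase subunit (mm10, chr5:30118304-30154980), had 1457, 1277, 1468, 1583 and 1502 normalized counts with vehicle and 1449, 1523, 1585, 1501 and 1338 with GPI. Hadhb, the thiolase subunit (mm10, chr5:30155253-30184593), had 749.6, 523, 700.1, 772 and 694 normalized counts with vehicle and 656, 717, 825, 658 and 644 with GPI. In both genes GPI was higher in M2 and M3 and lower in M1, M4 and M5, so that the values crossed. The log2 fold changes were 0.02 ± 0.08 for Hadha and 0.03 ± 0.11 for Hadhb (edgeR adjusted p = 0.876 for each), and the sign of both turned negative under scaling by library totals and without M2 or M3. The division into membrane complex and matrix enzymes was drawn after the values were seen, and the difference between these enzymes was not tested.

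**Figure D2:**
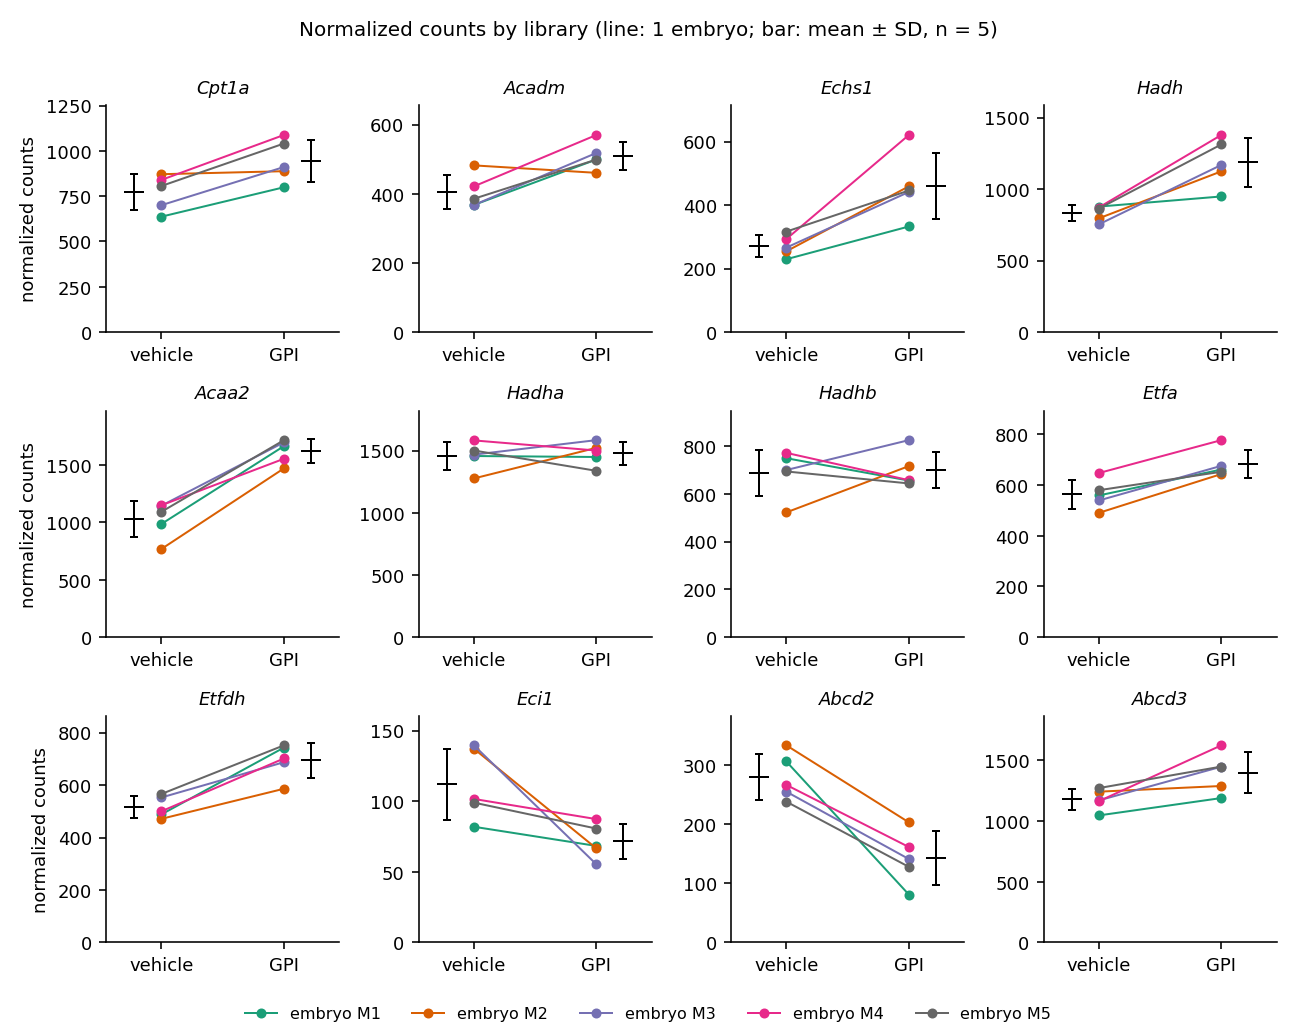
Normalized counts of the 10 called genes and of Hadha and Hadhb in each library. Lines join the vehicle and GPI testes of 1 embryo, and bars give the mean ± SD of 5 libraries. Echs1, Hadh, Acaa2 and Etfdh separate upward and Abcd2 downward, whereas lines cross for Hadha and Hadhb.

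Hadha and Hadhb lie head to head on chromosome 5, with 272 bases between their annotated starts, and their single-embryo log2 ratios had the same sign in every embryo (-0.01, 0.25, 0.11, -0.08 and -0.17 for Hadha and -0.19, 0.45, 0.24, -0.23 and -0.11 for Hadhb). The stretch that lies upstream of both genes is shown because these 2 genes followed each other across embryos. It is read on the strand of Hadhb from the RefSeq promoter table (GRCm38.p6, plus strand, chr5:30155003-30155230, 228 bases, intergenic), with capitals marking the only GC box, GGGCGG, in it.
Hadha and Hadhb, shared upstream stretch: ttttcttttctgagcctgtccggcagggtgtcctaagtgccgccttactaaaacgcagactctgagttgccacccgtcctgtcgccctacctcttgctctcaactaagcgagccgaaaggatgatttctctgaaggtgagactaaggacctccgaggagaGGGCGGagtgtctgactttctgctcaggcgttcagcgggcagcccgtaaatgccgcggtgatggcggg

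Electrons from the dehydrogenases pass to the electron transfer flavoprotein, made of Etfa and Etfb, and then through Etfdh to ubiquinone. Etfdh (mm10, chr3:79603788-79628767, Entrez ID 66841) had 488, 471, 553, 500.0 and 566 normalized counts with vehicle and 743, 586, 688, 702 and 752 with GPI. No GPI value fell among the vehicle values, and M2 was the lowest of both groups. It rose 1.34-fold (log2 fold change 0.43 ± 0.09, edgeR adjusted p = 0.00274; 5 of 5 embryos). In embryos M2 and M3 alone Etfdh was not called (0.31, adjusted p = 0.272).

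Etfa (Entrez ID 110842) had 559, 490.4, 539, 648 and 579.8 normalized counts with vehicle and 662, 644, 676, 778 and 653 with GPI. Each embryo was higher with GPI, but the vehicle library of M4 exceeded the GPI library of M2. Etfa rose 1.21-fold (log2 fold change 0.28 ± 0.08, edgeR adjusted p = 0.0278), with adjusted p of 0.0585 to 0.13 without M1, M2, M3 or M4. Etfb had 290.0 ± 45 with vehicle and 341 ± 71.3 with GPI and was higher in 4 of 5 embryos (log2 fold change 0.23 ± 0.11, edgeR adjusted p = 0.179).

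Unsaturated chains need auxiliary enzymes. Eci1, the mitochondrial enoyl-CoA isomerase (mm10, chr17:24426683-24439316, Entrez ID 13177), had 81.9, 137, 139.6, 102 and 99 normalized counts with vehicle and 68.3, 66.5, 55.2, 87.3 and 80.6 with GPI. It was lower with GPI in 5 of 5 embryos, most in M2 and M3, and the groups overlapped because the vehicle library of M1 was low. Eci1 fell (log2 fold change -0.63 ± 0.21, edgeR adjusted p = 0.0455), against the direction of the other called mitochondrial genes, and the adjusted p was 0.0549 to 0.188 without M2, M3, M4 or M5. The dienoyl-CoA reductase Decr1 had 442 ± 37.1 with vehicle and 531 ± 75.8 with GPI, was higher in 4 of 5 embryos and was not called (log2 fold change 0.26 ± 0.10, edgeR adjusted p = 0.0906).

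Among the peroxisomal genes of the 32, the 2 called ones belong to import, and they moved in opposite directions. Abcd2, a transporter subunit for very-long-chain acyl-CoA (mm10, chr15:91145871-91191807, Entrez ID 26874), had 306, 333, 255, 266 and 238 normalized counts with vehicle and 80.6, 203, 141, 161 and 128 with GPI. All GPI values were below all vehicle values, and M1 had the lowest GPI value. Abcd2 fell to 0.5 of the vehicle level (log2 fold change -1.0 ± 0.17, edgeR adjusted p = 0.000631; lower in 5 of 5 embryos), from -1.08 to -0.81 with single embryos left out. Abcd3, the major membrane transporter of peroxisomes (mm10, chr3:121758910-121815215, Entrez ID 19299), had 1046, 1242, 1170.3, 1163 and 1272 normalized counts with vehicle and 1189.7, 1289, 1448, 1624 and 1449 with GPI. Each embryo was higher with GPI, and the groups overlapped. The increase was 1.18-fold (log2 fold change 0.24 ± 0.08, edgeR adjusted p = 0.0419), and the adjusted p was 0.0728 to 0.195 without M1, M3, M4 or M5.

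The enzymes inside the peroxisome were not called. Hsd17b4, the D-bifunctional protein, had 551, 437, 554, 582 and 609.5 normalized counts with vehicle and 614, 569, 572, 781 and 697 with GPI. It was higher in 5 of 5 embryos, with groups that overlapped (log2 fold change 0.24 ± 0.09, edgeR adjusted p = 0.0751). Ehhadh, the L-bifunctional protein, was scarce, with 31, 5.97, 17.9, 15.9 and 13.7 normalized counts with vehicle and 31.3, 21.1, 51.3, 18.9 and 38.1 with GPI. Its fitted value was the highest of the 30 genes and also the least certain (log2 fold change 0.97 ± 0.38, edgeR adjusted p = 0.0839), and M1 and M4 had nearly equal values in both cultures. Acox3, the oxidase of branched chains, had 110.0 ± 5.3 with vehicle and 142 ± 34.1 with GPI and was higher in 4 embryos (log2 fold change 0.34 ± 0.18, edgeR adjusted p = 0.209).

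The other tested peroxisomal genes were Acaa1a, Eci2 and Crot, and their group means were close. The thiolase Acaa1a had 212 ± 16.9 with vehicle and 227 ± 17.7 with GPI (log2 fold change 0.10 ± 0.12, edgeR adjusted p = 0.605). Eci2, the peroxisomal isomerase, had 498 ± 61.9 with vehicle and 496 ± 59.5 with GPI (log2 fold change -0.0048 ± 0.10, edgeR adjusted p = 0.982). Crot, which makes medium-chain acylcarnitines for export, had 461 ± 40.4 with vehicle and 464 ± 29.2 with GPI (log2 fold change 0.01 ± 0.10, edgeR adjusted p = 0.963). The sign of Eci2 turned without M2 or M5, and that of Crot without M1 or M3, in DESeq2 and under scaling by library totals. Acaa1b, a copy of Acaa1a, had raw counts of 3 to 16 and was not tested. Their longest transcripts are 97.3% identical over 964 aligned bases, so the division of reads between the 2 copies is uncertain.

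The 3 genes outside both groups gave 0 calls by edgeR, DESeq2 or limma-voom, and 0 had an unadjusted p under 0.05 in edgeR. Cpt1c, the brain-type carnitine palmitoyltransferase of the endoplasmic reticulum, had 236 ± 35.5 with vehicle and 251 ± 10.3 with GPI (log2 fold change 0.10 ± 0.12). Crat, the carnitine acetyltransferase of both organelles, had 346 ± 34.7 with vehicle and 387 ± 53.8 with GPI (log2 fold change 0.16 ± 0.12). Acad11, a dehydrogenase found in both organelles, had 129 ± 27.5 with vehicle and 131 ± 12.9 with GPI (log2 fold change 0.03 ± 0.17), with a negative sign under scaling by library totals and without M1, M3 or M5.

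The median change of mitochondrial genes was above that of peroxisomal genes in 5 of 5 embryos, but by only 0.01 in M1. The amounts varied between embryos and with the genes counted. The median log2 fold change was 0.24 over 19 mitochondrial genes and 0.17 over 8 peroxisomal genes, against 0.02 over all tested genes, a difference of 0.07. In single embryos the mitochondrial median was 0.15, 0.26, 0.31, 0.30 and 0.17, and the peroxisomal median was 0.15, 0.03, 0.08, 0.24 and 0.03. The median over all tested genes was between 0.01 and 0.02 in each. The mitochondrial median was thus above that of all genes in 5 of 5 embryos, and the difference between organelles was 0.01, 0.23, 0.23, 0.06 and 0.14 (mean 0.13 ± 0.10, SD, n = 5). It depended on which genes were counted as peroxisomal: the fitted difference was 0.001 without Eci2 and 0.14 with Acad11 added. With M2 and M3 alone it was 0.03. In M1 the order turned without Eci2, since the middle peroxisomal value was then that of Hsd17b4 (0.16). No p is given, because the genes are a chosen list.

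**Figure D3:**
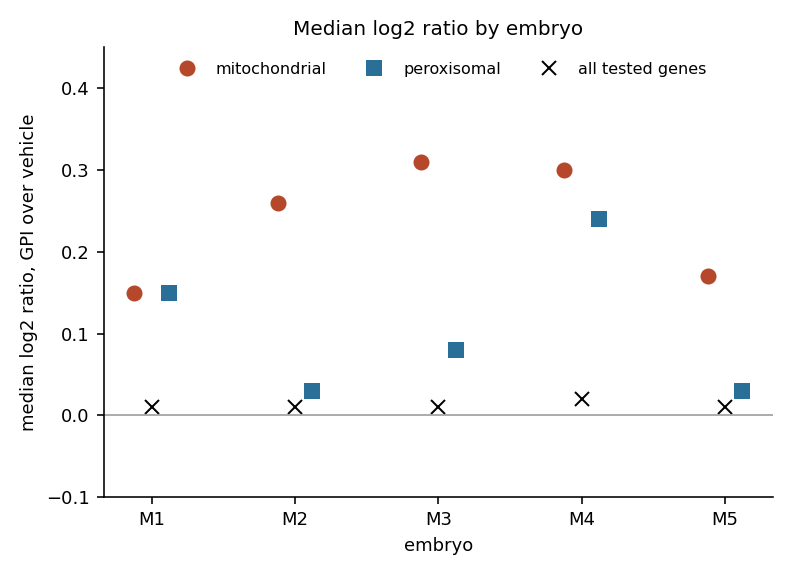
Median log2 ratio of GPI over vehicle in each embryo, over 19 mitochondrial, 8 peroxisomal and 13941 tested genes. Circles lie at 0.15 to 0.31 and squares at 0.03 to 0.24, with almost no distance between them in M1.

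Levels of different genes were compared per length, as counts per kilobase of the longest annotated transcript scaled to the same sum in each library. In vehicle testes the levels per length of the 32 genes ran from 169.6 ± 28.8 for Acaa2 to 0.108 ± 0.114 for Cpt1b (SD, n = 5). The median level was 35.9 over all 20 mitochondrial and 14.4 over all 9 peroxisomal genes, with the untested Cpt1b and Acaa1b (1.21) included. Over the 13303 tested genes with a length it was 17.8. Without Acaa1b, the 2 middle values of the 8 tested peroxisomal genes were 14.4 (Acaa1a) and 38.5 (Crot). The side on which peroxisomal genes lie thus depended on this gene. Etfa (101.0 ± 11.3), Hadha (90.6 ± 8.39), Abcd3 (84.4 ± 7.61) and Etfb (81.3 ± 14.4) came after Acaa2 and did not differ from each other beyond their spread. Among entry steps, Cpt1a (44.5 ± 5.66) was above Cpt1c (18.1 ± 3.01).

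Among the peroxisomal importers Abcd3 was far above Abcd2 (12.6 ± 1.46 with vehicle and 5.85 ± 1.78 with GPI, level per length). Of the bifunctional proteins, Hsd17b4 (50.9 ± 7.27) was far above Ehhadh (1.42 ± 0.753). The summed level per length of the 20 mitochondrial genes was 920.2 ± 73 with vehicle and 1042.5 ± 84.4 with GPI, and higher with GPI in 5 of 5 embryos. That of the 9 peroxisomal genes was 253.5 ± 18.8 and 252.9 ± 22.8, and higher in 2 of 5. Acaa2 alone, at 169.6 ± 28.8 with vehicle and 244.0 ± 18.3 with GPI, made up most of the mitochondrial difference. Several other mitochondrial genes were lower with GPI on this scale, Hadha among them (90.6 and 83.9). On this scale the median over tested genes itself shifted by -0.11 (log2) with GPI, so these sums understate changes relative to TMM-scaled counts.

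**Figure D4:**
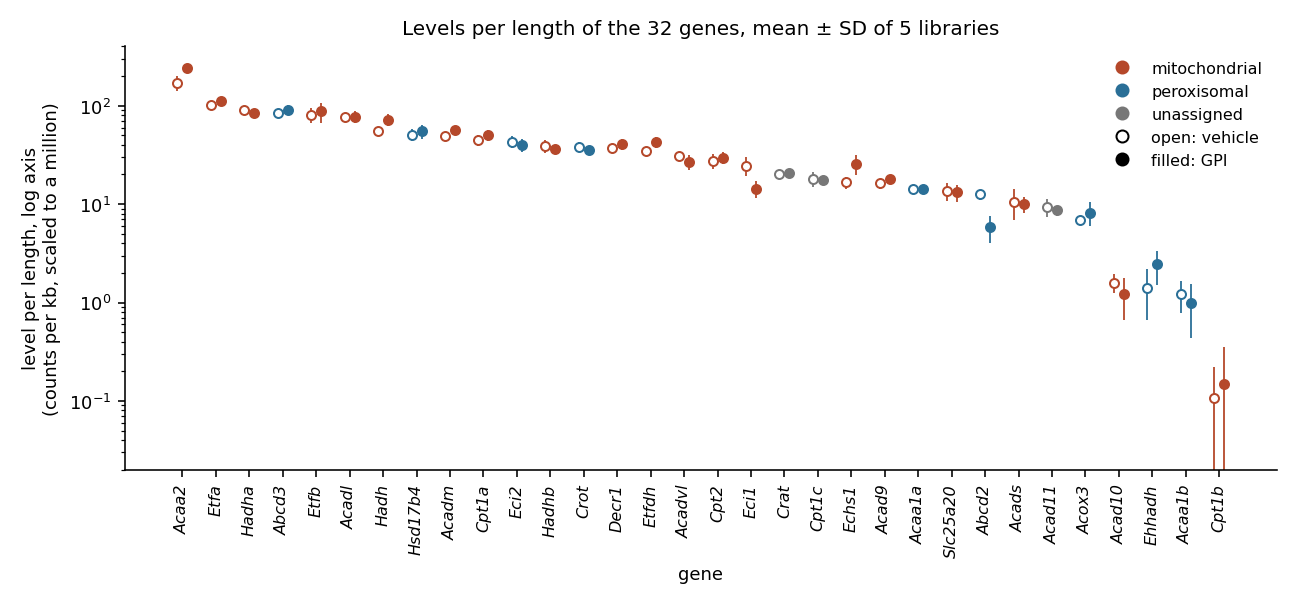
Level per length of the 32 genes on a log axis, sorted by the vehicle mean, with the mean ± SD of 5 libraries (open, vehicle; filled, GPI; bars of Cpt1b run off the axis). Acaa2 is highest in both groups, and Cpt1b, Acaa1b, Ehhadh and Acad10 are lowest.

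Promoters of 25 of the 32 genes were matched by symbol in the RefSeq table (GRCm38.p6, 250 bases before to 50 after the start), leaving Cpt1b, Acad9, Acaa2, Decr1, Abcd2, Hsd17b4 and Crat. The letters AAGGTCA, a site of nuclear receptors that bind as monomers, were found on either strand in 1 of the 25 genes, Acadm, and in 5.38% of 27025 genes. The direct repeat AGGNCANAGGNCA was in 0 of 25 and in 0.451%. The palindrome of 10 letters that NRF1 binds, in capitals in the Etfdh stretch below, was in Acad10 and Etfdh and in 1.07% of genes, and GGGCGG was in 19 of 25 and in 38.2%. These matches are descriptions of the windows only. Stretches of the called genes Acadm and Etfdh that hold a match are shown, upstream of the start and on the minus strand of GRCm38.p6, with the match in capitals. In Acadm (chr3:153944856-153944893) the match reads as the complement and begins 249 bases before the start, and in Etfdh (chr3:79628856-79628925) it begins 128 bases before.
Acadm: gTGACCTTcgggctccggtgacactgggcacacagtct
Etfdh: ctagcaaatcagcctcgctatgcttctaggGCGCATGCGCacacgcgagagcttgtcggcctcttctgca

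Reads were counted without regard to strand, and 9 of the 32 genes overlap another entry, 5 of them on the other strand. The partners had few counts: Dolpp1, beside Crat, had the most, at 34 ± 4.32 with vehicle and 48.1 ± 15.8 with GPI. Garem2, which meets the end of Hadha, had 4.46 ± 4 and 2.12 ± 2.08. None of the 10 called genes overlaps another entry.

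Genes that control oxidation included the most raised gene of the lists around the pathway, Ppara. Of 15 such genes, 5 were called higher (33.3%) and 1 lower (6.67%), against 11.1% and 11.9% of all tested genes. Their median log2 fold change was 0.40. Ppara, a fatty acid-sensing nuclear receptor that drives many oxidation genes, had 39.9, 38.2, 60.3, 43.8 and 83 normalized counts with vehicle and 125, 165, 155, 149 and 143 with GPI. The groups were separate and Ppara rose 2.85-fold (log2 fold change 1.51 ± 0.21, edgeR adjusted p = 0.000127; 5 of 5 embryos). Its relative Pparg was scarce, at 23.6 ± 5.66 with vehicle and 46.2 ± 17.9 with GPI, and rose (log2 fold change 0.93 ± 0.30, edgeR adjusted p = 0.041). The coactivator Ppargc1a had 648 ± 105 with vehicle and 853 ± 122 with GPI and rose (log2 fold change 0.40 ± 0.11, edgeR adjusted p = 0.0137). Pparg lost the call without M1, M2, M3 or M5 (adjusted p = 0.0545 to 0.154) and Ppargc1a without M3, M4 or M5 (0.059 to 0.0866), so that 3 genes were called higher without M3 or M5.

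Of the 5 listed genes of malonyl-CoA and AMP-activated kinase, Acaca and Prkaa2 rose, and Acacb (log2 fold change -0.04 ± 0.23, edgeR adjusted p = 0.933), Mlycd (log2 fold change 0.42 ± 0.32, edgeR adjusted p = 0.406) and Prkaa1 (log2 fold change -0.07 ± 0.08, edgeR adjusted p = 0.644) were not called. This grouping was made after the values were seen. Acaca makes malonyl-CoA, which inhibits the Cpt1 enzymes, and had 536, 568, 624, 566 and 711 normalized counts with vehicle and 677, 932, 944, 1006 and 1002 with GPI. It was higher in every embryo (log2 fold change 0.60 ± 0.09, edgeR adjusted p = 0.000293), least in M1. Prkaa2, a catalytic subunit of AMP-activated kinase, which inhibits acetyl-CoA carboxylases, had 101 ± 28.3 with vehicle and 169.6 ± 22.3 with GPI with separate groups (log2 fold change 0.79 ± 0.16, edgeR adjusted p = 0.00311). The pyruvate dehydrogenase kinase Pdk4, a gene that PPAR receptors are known to induce, had 127, 84.7, 86, 107 and 105 normalized counts with vehicle and 142, 55.1, 48.5, 53.7 and 24 with GPI. M1 went up where the other 4 embryos went down. Pdk4 fell in the fit (log2 fold change -0.83 ± 0.27, edgeR adjusted p = 0.0401) but was not called without M2, M3, M4 or M5 (adjusted p = 0.0728 to 0.14), by limma-voom or without the embryo in the model, which left 0 control genes called lower there.

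Activation and uptake of fatty acids gave 3 genes called higher (23.1%) and 1 lower (7.69%) of 13 tested of 14. The shares over all tested genes were 11.1% and 11.9%, and the median log2 fold change of the list was 0.40. Acsl4, the acyl-CoA synthetase that prefers arachidonate, had 2545, 2977, 2749, 3127 and 2894 normalized counts with vehicle and 2768, 4894, 4477, 5594 and 4453 with GPI. All 5 embryos were higher with GPI, M1 only slightly (log2 fold change 0.60 ± 0.09, edgeR adjusted p = 0.000314). Acsl3, the synthetase of the endoplasmic reticulum and lipid droplets, had 1605 ± 161 with vehicle and 2036 ± 279 with GPI and rose (log2 fold change 0.34 ± 0.10, edgeR adjusted p = 0.0238), and the fatty acid transport protein gene Slc27a6 had 164 ± 14.3 with vehicle and 245 ± 52.1 with GPI and rose (log2 fold change 0.56 ± 0.14, edgeR adjusted p = 0.0105). Acsl5, a mitochondrial synthetase, had 301 ± 26.5 with vehicle and 215 ± 45.5 with GPI and fell in 5 of 5 embryos (log2 fold change -0.50 ± 0.12, edgeR adjusted p = 0.00794). Acsl3 lost its call without M2, M3 or M4 (adjusted p = 0.0737 to 0.0937) and Slc27a6 without M3 or M4 (0.0556 to 0.0637), and 1 gene of the list was called higher without M3 or M4.

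Of 7 ketone body genes 3 were called higher (42.9%, against 11.1% of all tested genes), and only these are described. Oxct1, which activates ketone bodies for use, had 2305, 2255, 2176, 2150.5 and 1999.9 normalized counts with vehicle and 1877, 3207, 3130.3, 3475 and 3331 with GPI. It was higher in 4 embryos and lower in M1 (log2 fold change 0.44 ± 0.12, edgeR adjusted p = 0.0185), and was not called without M2, M3, M4 or M5 (adjusted p = 0.0621 to 0.0889). The cytosolic thiolase Acat2, known for sterol synthesis, followed the same pattern, at 327 ± 43.9 with vehicle and 526 ± 147 with GPI (log2 fold change 0.65 ± 0.18, edgeR adjusted p = 0.0188), and lost the call without M2, M4 or M5 (0.062 to 0.0979). Bdh2, a cytosolic dehydrogenase also known for siderophore synthesis, had 38 ± 12 with vehicle and 72.7 ± 21.4 with GPI (log2 fold change 0.93 ± 0.25, edgeR adjusted p = 0.0164) and lost it without M3 or M5 (0.0702 to 0.0872). Without M2, M3 or M4 in turn 1 ketone body gene was called higher, and without M5 the edgeR count was 0.

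The other genes of peroxisomal oxidation were mostly not called: of 12 tested of 14, 1 was higher and 1 lower (8.33% each), with a median of 0.08. These shares are near those over all tested genes (11.1% and 11.9%). Phyh, the hydroxylase that starts the alpha-oxidation of phytanate, had 128, 179, 153, 153 and 199 normalized counts with vehicle and 180.2, 280.5, 332, 309 and 289.8 with GPI. It was higher in 5 of 5 embryos (log2 fold change 0.76 ± 0.13, edgeR adjusted p = 0.000825). Catalase, Cat, which removes the hydrogen peroxide of the oxidases, had 3160.2, 3577, 2912, 2930.5 and 2589.6 normalized counts with vehicle and 2372, 2500.2, 2284, 1985 and 2444 with GPI. All GPI values were below all vehicle values (log2 fold change -0.39 ± 0.08, edgeR adjusted p = 0.0026). Both calls held with any 1 embryo left out, and without M5 a second gene was called lower.

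Peroxisome biogenesis genes leaned upward. Of 16, 5 were called higher (31.2%) and 0 lower, against 11.1% and 11.9% of all tested genes. The median was 0.31, and all 16 fitted values were above 0 under each scaling (13 without M1, and 15 without M3, M4 or M5). By DESeq2 and by limma-voom 0 were lower as well, and 0 had an unadjusted p under 0.05 in that direction in edgeR. Pex2, a subunit of the membrane ubiquitin ligase, had 448, 289, 362, 364 and 347 normalized counts with vehicle and 517, 512, 517, 608 and 486 with GPI. The groups were separate (log2 fold change 0.55 ± 0.11, edgeR adjusted p = 0.00189). Pex26 (log2 fold change 0.40 ± 0.10, edgeR adjusted p = 0.0104), Pex13 (log2 fold change 0.31 ± 0.09, edgeR adjusted p = 0.0246), Pex19 (log2 fold change 0.30 ± 0.09, edgeR adjusted p = 0.0264) and Pex11a (log2 fold change 1.05 ± 0.34, edgeR adjusted p = 0.0419) also rose. Pex2 and Pex26 held with any 1 embryo left out, whereas Pex11a lost its call whichever embryo was left out (adjusted p = 0.067 to 0.134), Pex13 without M2, M4 or M5 (0.0521 to 0.123) and Pex19 without M3, M4 or M5 (0.0644 to 0.133). The number called higher was 3 without M3, 2 without M4 or M5, and 2 with counts scaled by library totals.

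Genes that track mitochondrial content gave 3 of 19 called higher (15.8%) and 0 lower, with a median of 0.15. Of all tested genes 11.1% were called higher and 11.9% lower, so the share called higher is near that over all genes. DESeq2 and limma-voom also called 0 lower, and edgeR gave 0 lower at an unadjusted p under 0.05. Vdac3, an outer-membrane channel, rose from 873 ± 94.2 to 1324 ± 191 (log2 fold change 0.59 ± 0.08, edgeR adjusted p = 6.19e-05). The chaperones Hspd1 (log2 fold change 0.45 ± 0.08, edgeR adjusted p = 0.000565) and Hspa9 (log2 fold change 0.52 ± 0.09, edgeR adjusted p = 0.000522) rose in 5 of 5 embryos, and without M5 the list had 5 genes called higher. Citrate synthase, the channel Vdac1 and the import receptors of the list were among the 16 genes not called. The mitochondrial oxidation genes had a median of 0.24 beside 0.15 for mitochondrial content. In single embryos the medians were 0.15, 0.26, 0.31, 0.30 and 0.17 for oxidation and 0.14, 0.25, 0.15, 0.15 and -0.01 for content. The medians of both lists were thus nearly equal in M1 and M2, and their difference was not tested. In embryos M2 and M3 alone the numbers called higher were 2 for mitochondrial content, 1 for peroxisome biogenesis, 1 for other peroxisomal oxidation, 1 for activation and uptake, 2 for control and 1 for ketone bodies. Cat was called lower there, and the edgeR numbers called lower for activation and for control were 0.

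**Figure D5:**
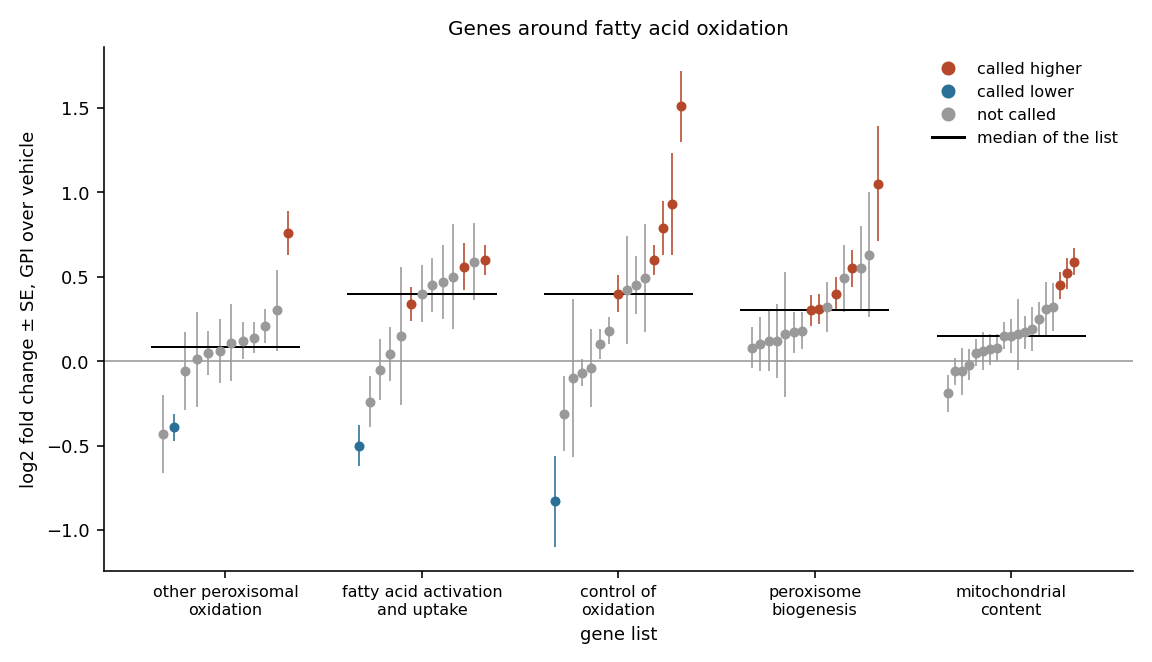
Log2 fold change of GPI over vehicle, with its SE, for the tested genes of 5 lists around fatty acid oxidation. Each dot is 1 gene and black lines are list medians. Ppara is the highest dot and Pdk4 the lowest.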

How the data were processed

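RNA of 10 cultured testes, 1 GPI and 1 vehicle testis from each of 5 embryos, was sequenced. Per the labels and the paper, the authors aligned read pairs to mm10 with STAR 2.5 and deposited counts per gene from featureCounts (Subread 1.5.0-p1, unstranded), with no normalization. The table held 24470 entries and 10203679 to 15635322 counts per library. At this depth a gene of 100 counts carries a counting error of about 10%, and differences between embryos come on top.

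Counts were filtered with filterByExpr (minimum count 10, minimum total 15), which left 13941 genes and set aside 10529, and scaled by TMM. The quasi-likelihood test of edgeR (4.0.16, R 4.3.3) was run with Benjamini-Hochberg adjustment, embryo and treatment in the model and an FDR of 0.05 over all tested genes. SE are those of the fitted log2 fold changes. Ratios of single embryos used log2 normalized counts with 2 added. The test was checked on simulated data of 13941 genes. It recovered 26.9% of changes of log2 size 0.5, 83.6% of size 1.0 and 90.9% of size 2.0, with 9 false calls. A gene that was not called can therefore still have changed. Most changes of size 0.5 were missed, and some of size 1.0 and 2.0 were missed as well.

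Alternatives were DESeq2 (1.42.0), limma-voom (limma 3.58.1), no embryo block, DESeq2 size factors, library totals only, a minimum of 10 counts in every library, leaving out the low-count filter, each embryo left out in turn, Acad11 counted as peroxisomal, Eci2 left out, and embryos 2 and 3 only, the last chosen after seeing the data. The 32 genes, the companion lists and the marker lists were chosen with earlier results of these data known. Named genes were the 32, the called genes of each companion list (of ketone body genes, those called higher; its most abundant gene where none was called), and the 3 most abundant vehicle genes of each marker list, and other markers were named after their values were seen.

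Levels per length used the longest GENCODE M21 transcript, matched by Entrez ID (21358 entries, 87.3%). Promoters were 250 bases before to 50 after RefSeq starts (GRCm38.p6), searched on both strands. Pairing was checked from deviations from the treatment means. The mean correlation was 0.06 within embryos and -0.01 between them (exact one-sided p = 0.05 over 120 pairings), and 2 of 5 GPI libraries were most like their own embryo's vehicle library. No library was left out. Tables were made with Python 3.11.15, pandas 2.3.3, numpy 2.4.6 and Biopython 1.88, and figures with matplotlib 3.10.9.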

Additional observations from a re-analysis of the deposited data

Results flagged for a closer look

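In 13 of 172 groups of 5 libraries, 1 library lay far from the other 4 by Dixon's ratio of gap to range (above 0.71). Chance puts about 1 in 20 groups there. All values are normalized counts. In the GPI group, M1 was low for Slc27a6 (155.6, others from 254.6), Acaca (677.1, others from 932.3) and Oxct1 (1876.9, others from 3130.3), and high for Pdk4 (142.1, others up to 55.1). M4 was high for Etfa (777.5, others up to 676.1), Pex2 (608.1, others up to 517.3) and Cpt1b (6.31, others up to 1.12). In the vehicle group, M2 was low for Pex11a (4.77, others from 19.8), Ddx3y (1529.8, others from 1736.4) and Eif2s3y (936.7, others from 1214.9), and high for Myh7 (62.1, others up to 33.5) and Fabp4 (432.0, others up to 343.3). M5 was low for Emx2 (790.8, others from 993.1). Of these genes Etfa and Cpt1b belong to the 32. The causes were not tested.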

How the results depend on the processing

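The number of genes called, 3198 in the paired test, was 3108 without the embryo block, 2819 to 3472 with the other tools, scalings and filters, 2311 to 3082 with 1 embryo left out, and 1545 with embryos 2 and 3 only, an alternative chosen after seeing the data, in which fewer libraries were tested. Of the 32 genes, 8 were called higher by DESeq2, limma-voom, DESeq2 size factors and both filters, 6 without the block, 4 with library totals only (the cause was not tested), 4 to 7 with 1 embryo left out and 3 with embryos 2 and 3 only, and 2 were called lower in all of these except leave-one-out (1 to 2). The median log2 fold change was 0.19 to 0.25 over mitochondrial genes, 0.09 to 0.24 over peroxisomal genes and 0.001 to 0.15 for their difference over all alternatives. With embryos 2 and 3 only, the number called higher was 1 for activation and uptake, 2 for control, 1 for ketone bodies and 1 for peroxisome biogenesis, and the number called lower by edgeR was 0 for activation and control. Library totals gave 2 for peroxisome biogenesis, and limma-voom and the fit without the block gave 0 control genes lower (unadjusted p under 0.05 in 1 by edgeR). Leave-one-out ranges were 1 to 2 for other peroxisomal oxidation lower, 1 to 3 for activation higher, 3 to 5 and 0 to 1 for control higher and lower, 0 to 4 for ketone bodies higher, 2 to 4 for peroxisome biogenesis higher and 3 to 5 for mitochondrial content higher. Signs of log2 fold changes reversed for 10 genes that were called in neither fit, and the cause was not tested. Acadvl (-0.06) became -0.15 to 0.05 (1 embryo left out). Acads (0.07) became -0.17 to 0.19 (1 embryo left out). Hadha (0.02) became -0.03 (library totals) and -0.03 to 0.07 (1 embryo left out). Hadhb (0.03) became -0.02 (library totals) and -0.07 to 0.10 (1 embryo left out). Eci2 (-0.0048) became 0.01 (embryos 2 and 3) and -0.06 to 0.10 (1 embryo left out). Crot (0.01) became -2.4e-05 (DESeq2), -0.04 (library totals), -0.00081 (10 counts in every library), -0.01 (embryos 2 and 3) and -0.07 to 0.06 (1 embryo left out). Acad11 (0.03) became -0.02 (library totals), -0.02 (embryos 2 and 3) and -0.10 to 0.15 (1 embryo left out). Gata3 (0.10) became -0.0024 (limma-voom), -0.01 (no block), -0.52 (embryos 2 and 3) and -0.18 to 0.35 (1 embryo left out). Plin1 (0.68) became -0.67 (embryos 2 and 3). Eif2s3y (0.0035) became -0.01 (DESeq2), -0.01 (DESeq2 size factors), -0.05 (library totals), -0.00031 (no filter), -0.01 (10 counts in every library) and -0.08 to 0.08 (1 embryo left out). Among the values of single genes of the 32, 336 kept direction and side of the threshold, 31 lost the call in the same direction and 22 reversed, and among those of other named genes 619, 64 and 14 did. Low counts limit Cpt1b and Acaa1b, which were not tested.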
